A study of Homo sapiens with 10 samples.

Results

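Interferon-stimulated genes are described here at rest, in cells to which no interferon is recorded as having been added. The set holds 49 named genes of the 20136 protein-coding genes in the GENCODE annotation on hg19. The genes were listed by name and known role, with no threshold on the peaks but with earlier results of these data known, and all 49 were found in the annotation, DDX58 under its later symbol RIGI. By known role they were divided into 15 regulators, which are transcription factors, RNA sensors and modifiers of the signal, and 34 effectors, which act on viruses, on infected cells or as secreted signals.

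The study made 10 ChIP-seq libraries from the human colorectal carcinoma line HCT116, an established line, grown in DMEM with serum. Peak lists of 5 libraries were used, with 1 library per antibody, so no value has a replicate check and no test between genes was run. The antibodies were against total RNA polymerase II (Pol II), against KAP1 (also called TRIM28, a co-regulator bound to chromatin), against Larp7 and Hexim1 (proteins of the 7SK ribonucleoprotein) and against Cdk9 (the catalytic subunit of the elongation kinase P-TEFb). The Input library and those for H3K27ac, H3K4me1, H3K4me3 and Ser5P Pol II were not analysed here.

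Interferons bind receptors that activate JAK kinases, which phosphorylate transcription factors such as STAT2. STAT2 and IRF9 are subunits of a complex, ISGF3, that binds the interferon-stimulated response element (ISRE), while the gamma-activated site (GAS) is an element of genes that respond to interferon gamma. At many genes Pol II starts transcription and pauses close to the start until P-TEFb releases it, and the 7SK ribonucleoprotein, with Larp7 and Hexim1, holds P-TEFb in an inactive state.

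The labels call the line endothelial, so its markers were looked at first, at the start of the Ensembl canonical transcript. Of 9 colon epithelial markers, 8 had Pol II and all of the other factors, and VIL1 had Larp7 and Hexim1 alone. Among all coding genes, 74.2% had Pol II there and 63.8% had all 5 factors. Of 8 endothelial markers matched in the annotation, 3 had Pol II (CLDN5, ESAM and ROBO4), while TEK and VWF had none of the 5 factors. KAP1, Larp7 and Hexim1 were found at 6 of these 8, among them CDH5, KDR and TIE1, which had no Pol II. At the annotated 5′ end Pol II was found at 8 colon epithelial and 2 endothelial markers, and EPCAM and CLDN4 had neither KAP1 nor Cdk9. The lists held 229679 peaks of Hexim1, 184243 of Larp7, 120113 of Cdk9, 92939 of Pol II and 61312 of KAP1, and the read depth of the libraries is unknown.

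At rest, the annotated 5′ ends of the interferon-stimulated genes carried each of the 5 factors less often than those of coding genes in general. The gap lay mostly among the effectors. A factor was counted where at least 1 peak overlapped the window of 1 kb on each side of the annotated 5′ end. Pol II was found there at 27 of 49 members, which is 55.1% (exact 95% binomial interval 40.2 to 69.3), against 70.5% of all coding genes. KAP1 was found at 22 members (44.9%), against 64.6% of all coding genes. Larp7 was found at 27 members (55.1%), against 75.1%, and Hexim1 at 31 members (63.3%), against 78.7%. Cdk9 was found at 23 members (46.9%), against 69.1% of all coding genes. With any annotated transcript start counted, each member share was still the lower, but its interval held the share of coding genes. Pol II was then found at 67.3% of members (interval 52.5 to 80.1, against 77.2%) and KAP1 at 59.2% (44.2 to 73.0, against 72.3%). Larp7 was found at 75.5% (61.1 to 86.7, against 82.1%), Hexim1 at 73.5% (58.9 to 85.1, against 84.6%) and Cdk9 at 65.3% (50.4 to 78.3, against 77.0%).

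Members were less often full than coding genes in general, and the larger share of empty ones was at the edge of the counting error. All 5 factors were found together at 18 members, or 36.7% (interval 23.4 to 51.7), against 59.7% of all coding genes. None of the 5 was found at 15 members, or 30.6% (interval 18.3 to 45.4), against 18.3%. When a peak at any annotated transcript start of the gene was counted, these gaps were smaller, with all 5 factors at 28 members (57.1%, interval 42.2 to 71.2, against 68.0%) and none at 8 (16.3%, interval 7.32 to 29.7, against 13.0%), and both intervals held the share of coding genes. The intervals treat genes as independent draws and cover counting error only.

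Regulators and effectors differed most for Pol II and KAP1. Pol II was found at 13 of 15 regulators (86.7%, interval 59.5 to 98.3) and at 14 of 34 effectors (41.2%, interval 24.6 to 59.3), and these intervals just miss each other. The regulators PARP9 and DTX3L share a Pol II peak and were both counted, so they are not independent draws and the miss is not secure. The regulators' share was the higher under each of the 9 alternatives tried for it, but the intervals overlapped under 6 of them, for example at 80.0% (51.9 to 95.7) and 38.2% (22.2 to 56.4) with the −log10 q of the peaks at 5 or above. KAP1 was found at 11 regulators (73.3%, interval 44.9 to 92.2) and at 11 effectors (32.4%, interval 17.4 to 50.5), and these intervals overlap. All 5 factors were found at 9 regulators (60.0%, interval 32.3 to 83.7) and at 9 effectors (26.5%, interval 12.9 to 44.4), with overlap as well. Larp7 was found at 11 regulators and 16 effectors, Hexim1 at 12 regulators and 19 effectors, and Cdk9 at 9 regulators and 14 effectors. None was found at 1 regulator and at 14 effectors. The share of regulators with all 5 factors was close to that of all coding genes, and the share of effectors was lower. With any annotated transcript start counted, all 5 factors were found at 11 regulators (73.3%) and 17 effectors (50.0%), and with peaks at a −log10 q of at least 5 they were found at 1 regulator and 1 effector.

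**Figure D1:**
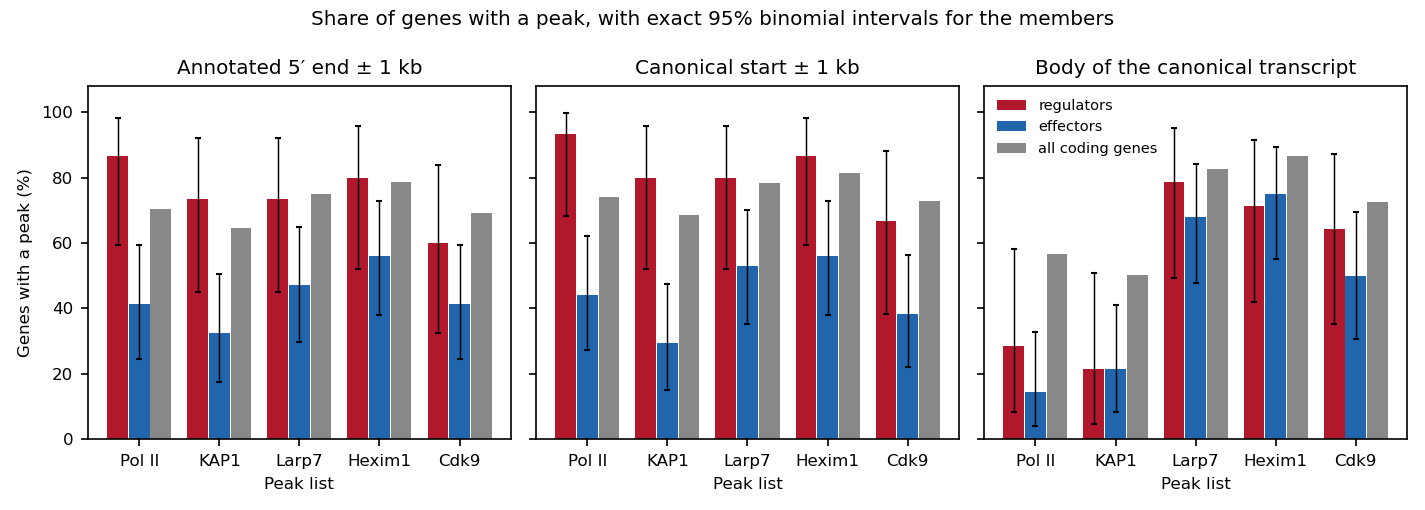
Percentage of regulators (red, n = 15 at starts and 14 in bodies), effectors (blue, n = 34 at starts and 28 in bodies) and all coding genes (grey) with a peak of each list, at the annotated 5′ end, at the canonical start and in the body of the canonical transcript, with exact 95% binomial intervals for the member bars. For Pol II at the annotated 5′ end the regulators reach 86.7% and the effectors 41.2%, on either side of the 70.5% of all coding genes.

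The annotated 5′ end is the outermost start of any transcript of a gene, and at several members it lies far from the start of the Ensembl canonical transcript. For 14 of 49 members the canonical start lay more than 1 kb further downstream, a larger share than the 16.6% of all coding genes. IRF1 is the clearest case. Its annotated 5′ end had no factor, and its canonical start, 17946 bp downstream, had all 5. RSAD2 went the other way, with all 5 factors at an annotated 5′ end that it shares with CMPK2 and none at its canonical start 12220 bp downstream. ISG15 had all 5 at both, with a Pol II peak of 147.5-fold at an annotated 5′ end shared with HES4 and of 41.9-fold at its canonical start 12359 bp downstream, in each case the authors' fold over background. In all, the set of factors differed between both starts at 9 of 49 members, against 10.5% of all coding genes. The member values below are therefore those at the canonical start, which was added after the data had been seen.

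At the canonical start Pol II was again more frequent at regulators than at effectors. Pol II was found at 29 of 49 members (59.2%, interval 44.2 to 73.0), against 74.2% of coding genes with a canonical start. It was found at 14 of 15 regulators (93.3%, interval 68.1 to 99.8) and at 15 of 34 effectors (44.1%, interval 27.2 to 62.1). KAP1 was found at 22 members, against 68.5% of coding genes, and these were 12 regulators (80.0%, interval 51.9 to 95.7) and 10 effectors (29.4%, interval 15.1 to 47.5), whose intervals do not overlap. This KAP1 contrast was not found on shorter lists, where KAP1 was found at 1 regulator (6.67%) and 3 effectors (8.82%) with the −log10 q at 5 or above, and at 2 regulators (13.3%) and 5 effectors (14.7%) with the 20000 strongest peaks. Larp7 was found at 30 members (61.2%, against 78.2%), Hexim1 at 32 members (65.3%, against 81.5%) and Cdk9 at 23 members (46.9%, against 72.7%). All 5 factors were found at 10 regulators and 10 effectors, together 40.8% of members against 63.8% of coding genes. None was found at 0 of 15 regulators and at 13 of 34 effectors (38.2%), together 26.5% of members against 15.8% of coding genes.

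**Figure D2:**
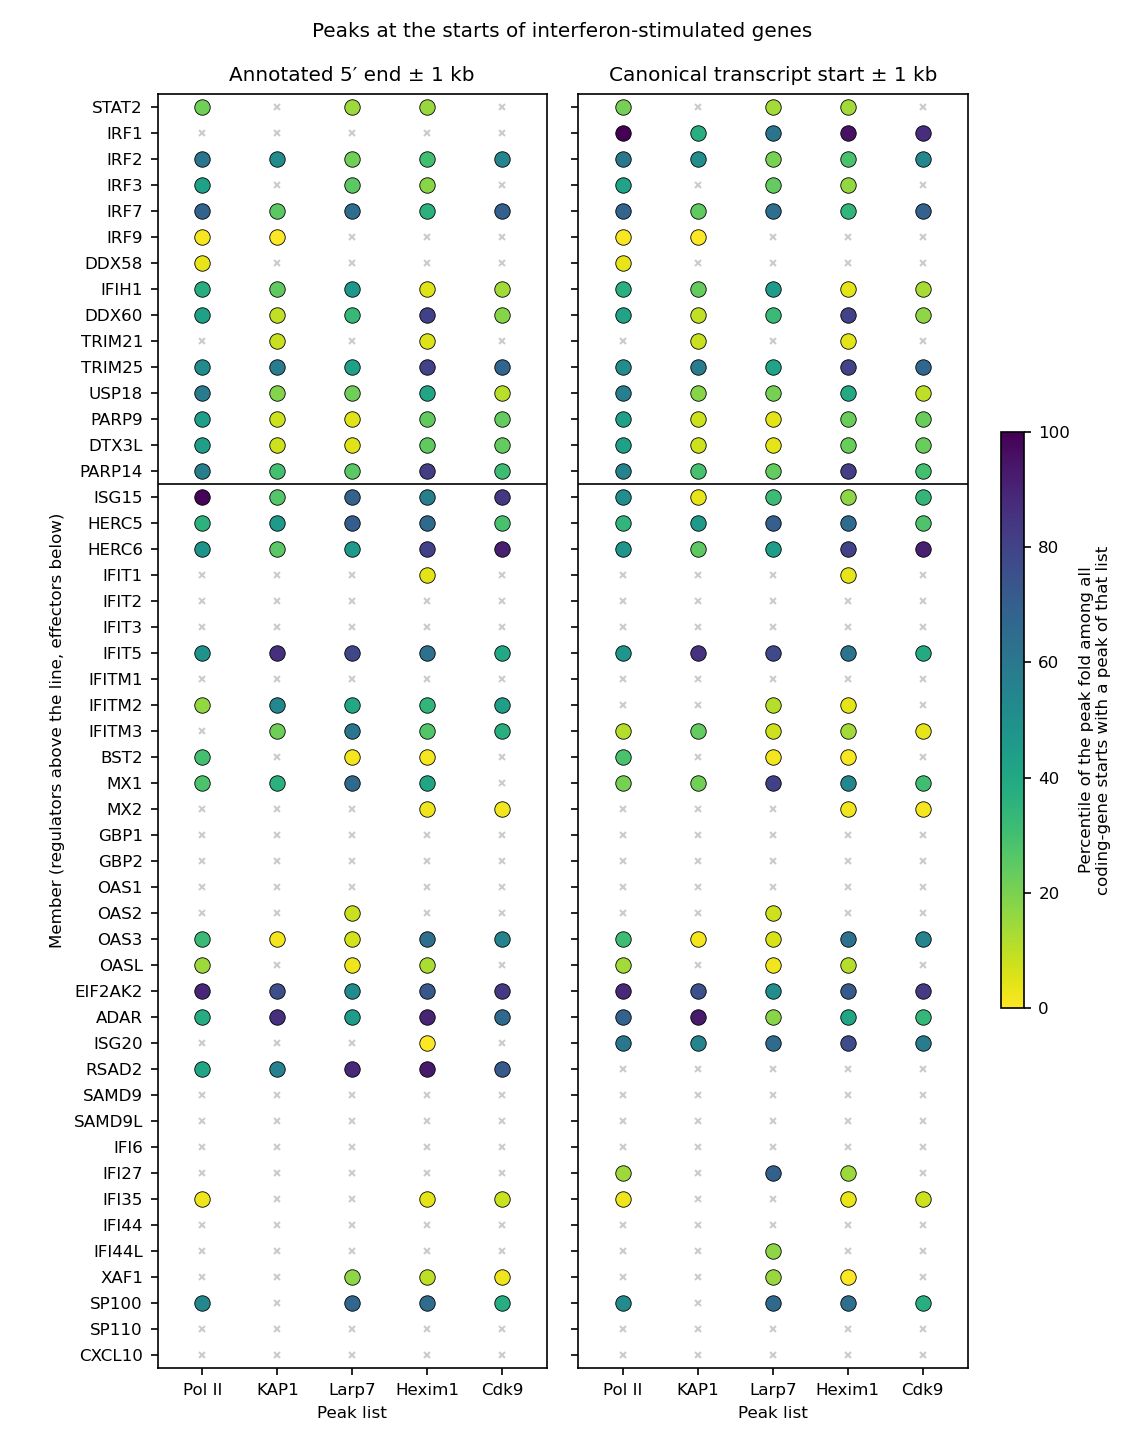
Peaks of each list (columns) at each member (rows, regulators above the line and effectors below it) within 1 kb of the annotated 5′ end (left) and of the canonical start (right). A circle marks a peak, its colour gives the percentile of the peak's deposited fold among coding starts with a peak of that list, and a small cross marks no peak. At the canonical start 13 effectors and no regulator have crosses in every column.

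The 6 transcription factors all had Pol II at the canonical start. The fold given below is the authors' deposited fold of a peak over its background, and it was used only to describe and rank peaks within 1 list. IRF1, an early activator that is itself induced by interferon gamma, had the highest Pol II fold of the members, 162.3, above 99.8% of coding starts with Pol II. Its Hexim1 fold of 11.4 and its Cdk9 fold of 5.79 were also high in their own lists, above 95.7% and 87.4% of coding starts with those factors, while its KAP1 fold of 4.54 was above 37.4%. IRF7, which drives the later wave of interferon genes, had a Pol II fold of 61.8, and IRF2, a repressor and antagonist of IRF1, had 52.2. Both also carried the other 4 factors, and the IRF7 start lay inside a Hexim1 domain of 24588 bp and a Larp7 domain of 17105 bp.

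The remaining 3 transcription factors were more sparsely covered. STAT2, a subunit of ISGF3, had a Pol II fold of 10.4 with Larp7 and Hexim1 but with neither KAP1 nor Cdk9. IRF3, which is activated by viral sensing, had the same combination with a Pol II fold of 31.9, in a window shared with the start of BCL2L12. IRF9, the DNA-binding subunit of ISGF3, had KAP1 and the weakest Pol II peak among the members, with a fold of 4.17, and none of Larp7, Hexim1 and Cdk9. Its KAP1 peak was weak as well, with a fold of 3.06, above 0.411% of coding starts with KAP1. The nearest Hexim1 peak lay 1.37 kb downstream of the IRF9 start and the nearest Larp7 peak 1.57 kb upstream, both just outside the window. Of 19855 coding genes with a canonical start, 7 had exactly the combination of Pol II and KAP1, which at IRF9 thus depends on the window and on weak peaks.

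RNA sensors and signalling regulators were mostly full. IFIH1 (the sensor MDA5) had a Pol II fold of 25.9 and DDX60, a helicase linked to RNA sensing, had 32, each with all of the other factors. DDX58 (the sensor RIG-I) had Pol II alone, with a fold of 4.86, above 3.52% of coding starts with Pol II. Among the 6 signalling regulators, 5 carried all 5 factors. USP18, which removes ISG15 and dampens receptor signalling, had a Pol II fold of 49.7. PARP14, an ADP-ribosyltransferase, had 47.9, and TRIM25, the ubiquitin ligase linked to RIG-I signalling, had 41.6. PARP9 and DTX3L, which form a complex, are divergent neighbours with a shared Pol II peak at chr3:122282909-122283669 and a fold of 33.3, so these 2 members rest on the same peaks. TRIM21, an antibody-binding ubiquitin ligase, was the regulator without Pol II. It had KAP1 and Hexim1, and its nearest Pol II peak was 206 kb downstream.

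Sequence before the canonical start is shown for a regulator with a GAS core (IRF1) and a regulator with several ISRE cores (IFIH1), both with all 5 factors. Each run gives the 250 bases before the start in the direction of transcription, read from the GRCh37 (hg19) reference. Capitals mark the ISRE core, taken as 2 copies of GAAA with any 2 bases between them (2 copies of TTTC when on the other strand), or at IRF1 the GAS core, written TTCNNNGAA. IRF1 is at chr5:131826466-131826715 and IFIH1 at chr2:163175195-163175444, both on the minus strand.
IRF1: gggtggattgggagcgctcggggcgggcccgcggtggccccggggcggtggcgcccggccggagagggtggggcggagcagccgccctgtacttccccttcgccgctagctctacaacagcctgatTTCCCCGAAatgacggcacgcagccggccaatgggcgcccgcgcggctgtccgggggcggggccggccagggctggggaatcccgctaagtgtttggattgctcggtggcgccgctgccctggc
IFIH1: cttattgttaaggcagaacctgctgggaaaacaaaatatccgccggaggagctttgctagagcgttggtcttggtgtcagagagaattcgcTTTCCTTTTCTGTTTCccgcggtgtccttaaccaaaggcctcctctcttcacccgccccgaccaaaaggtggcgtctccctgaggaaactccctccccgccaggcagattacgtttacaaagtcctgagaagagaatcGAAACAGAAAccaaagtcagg
IRF1 had its GAS core 124 bases before the start, with the sequence TTCCCCGAA, and no ISRE core. IFIH1 had 3 ISRE core matches, 2 of which overlap, and the closest began 21 bases before the start. A match is a match of letters and does not show that a factor bound it.

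Among effectors, the enzymes of ISG15 conjugation and several RNA-directed enzymes were as full as the regulators. ISG15, the ubiquitin-like protein that is attached to target proteins, had all 5 factors, with a Pol II fold of 41.9. HERC5, its main ligase in human cells, had a Pol II fold of 24, and its relative HERC6 had 38.3, with the highest Cdk9 fold of the members, 6.04. EIF2AK2 (the kinase PKR, which halts translation) had the Pol II fold next to that of IRF1, 96.5, and ADAR, which edits adenosine in RNA, had 62.5. ADAR also had the highest KAP1 fold of the members, 6.63, above 93.3% of coding starts with KAP1. ISG20, an exonuclease, had a Pol II fold of 53.1 and OAS3, an oligoadenylate synthetase, had 20.4, both with all 5 factors.

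The other oligoadenylate synthetases, which make the activator of RNase L, were not covered alike. OASL, a relative without that activity, had Pol II with a fold of 7.37, with Larp7 and Hexim1. OAS2 had Larp7 alone with a fold of 3.34, and OAS1 had no factor, with its nearest Pol II peak 31.3 kb downstream. Among the GTPases, MX1 had all 5 factors with a Pol II fold of 10.5, MX2 had weak Hexim1 and Cdk9 peaks with folds of 3.11 and 2.9, and GBP1 and GBP2 had none. All 5 factors lay 1.83 to 2.08 kb upstream of the GBP2 start, while the nearest Pol II peak to GBP1 was 62.9 kb upstream. Among the membrane restriction factors, IFITM3 had all 5 factors with a Pol II fold of 6.69, and BST2 (tetherin) had Pol II with a fold of 18, with Larp7 and Hexim1. IFITM2 had Larp7 and Hexim1, and IFITM1 had none although all 5 factors lay 1.56 to 1.69 kb downstream of its start.

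The IFIT family, whose proteins bind viral RNA, held a contrast between neighbours. IFIT5 had all 5 factors at its canonical start, with a Pol II fold of 38.5 and a KAP1 fold of 6.05, above 85.9% of coding starts with KAP1. IFIT1 had a weak Hexim1 peak with a fold of 3.37, and IFIT2 and IFIT3 had none. From the start of IFIT2 to the end of IFIT1, a span of 104 kb, there were 0 peaks of Pol II and 0 of Cdk9. The same span held 1 peak of KAP1, 3 of Larp7 and 6 of Hexim1. The nearest Pol II peak to the start of IFIT1 was 21.9 kb downstream, that to IFIT2 was 50.0 kb upstream and that to IFIT3 was 76.0 kb upstream. The annotated 5′ window of IFIT5 overlaps that of LIPA, a lysosomal lipase gene on the other strand.

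**Figure D3:**
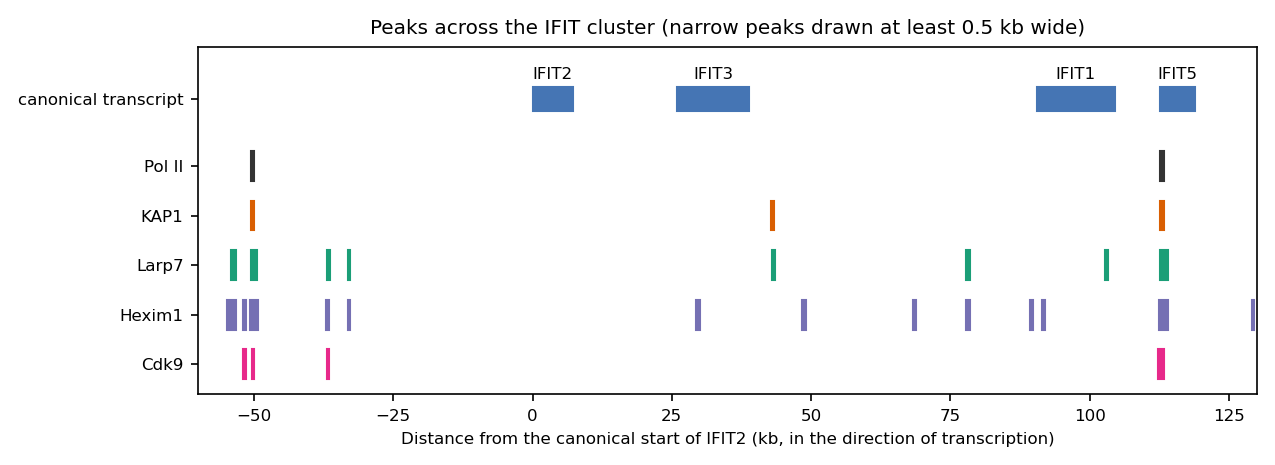
Peaks of each list across the IFIT cluster by distance in kb from the canonical start of IFIT2, with the canonical transcripts in the top row and each peak drawn at least 0.5 kb wide. Peaks of all 5 lists stand at the start of IFIT5, 112.5 kb along, and no Pol II or Cdk9 peak stands between the start of IFIT2 and the end of IFIT1.

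The runs before the starts of ISG15, IFIT5, IFIT1 and IFIT3 compare members with all 5 factors (ISG15 and IFIT5) with members that had Hexim1 alone or no factor (IFIT1 and IFIT3), with the ISRE core in capitals. All 4 lie on the plus strand, at chr1:948627-948876, chr10:91174075-91174324, chr10:91152130-91152379 and chr10:91087504-91087753 in that order.
ISG15: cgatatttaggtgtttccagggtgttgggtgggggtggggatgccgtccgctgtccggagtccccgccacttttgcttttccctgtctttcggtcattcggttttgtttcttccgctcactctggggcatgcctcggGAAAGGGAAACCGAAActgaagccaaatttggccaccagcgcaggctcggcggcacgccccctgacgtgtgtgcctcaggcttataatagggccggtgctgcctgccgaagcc
IFIT5: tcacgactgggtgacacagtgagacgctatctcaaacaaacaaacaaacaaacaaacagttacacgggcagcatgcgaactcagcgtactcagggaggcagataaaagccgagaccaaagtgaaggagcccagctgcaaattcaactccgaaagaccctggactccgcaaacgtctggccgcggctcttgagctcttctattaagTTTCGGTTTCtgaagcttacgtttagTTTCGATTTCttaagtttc
IFIT1: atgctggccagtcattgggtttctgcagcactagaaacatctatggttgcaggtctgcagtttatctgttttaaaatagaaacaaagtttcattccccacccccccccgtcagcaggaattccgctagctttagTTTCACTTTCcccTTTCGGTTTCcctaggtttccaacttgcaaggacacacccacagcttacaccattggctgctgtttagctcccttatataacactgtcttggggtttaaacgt
IFIT3: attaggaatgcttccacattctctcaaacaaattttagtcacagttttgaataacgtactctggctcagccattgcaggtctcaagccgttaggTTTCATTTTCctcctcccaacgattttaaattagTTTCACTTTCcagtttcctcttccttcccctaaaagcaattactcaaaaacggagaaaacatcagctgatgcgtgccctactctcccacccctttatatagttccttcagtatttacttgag
Each of the 4 runs holds 2 ISRE core matches. They begin 113 and 107 bases before the start at ISG15, 45 and 19 bases at IFIT5, 116 and 103 bases at IFIT1, and 156 and 122 bases at IFIT3. The genes were picked for display as holders of the core, so they show its letters and not how often it goes with a peak.

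The group of other effectors was the emptiest, with 7 of 12 members at 0 factors and none with KAP1. RSAD2 (viperin), SAMD9 and SAMD9L (restriction factors of poxviruses), IFI6, IFI44, SP110 and CXCL10 (a chemokine) had no factor at the canonical start. The nearest Pol II peak lay 74.2 kb from SAMD9, 105 kb from SAMD9L and 159 kb from IFI44. CXCL10 had peaks of all 5 lists 11.9 to 12.0 kb downstream. IFI27 had Pol II with a fold of 7.52, with Larp7 and Hexim1, and IFI35 had Pol II with a fold of 4.6, with Hexim1 and Cdk9. SP100, a nuclear body protein, was the best covered of the group, with a Pol II fold of 43.4 and all but KAP1. IFI44L had Larp7 alone, and XAF1 had Larp7 and Hexim1.

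The runs before the starts of IFI6 (chr1:27998704-27998953) and CXCL10 (chr4:76944651-76944900), both on the minus strand, are shown as starts without any factor that hold the ISRE core, again in capitals.
IFI6: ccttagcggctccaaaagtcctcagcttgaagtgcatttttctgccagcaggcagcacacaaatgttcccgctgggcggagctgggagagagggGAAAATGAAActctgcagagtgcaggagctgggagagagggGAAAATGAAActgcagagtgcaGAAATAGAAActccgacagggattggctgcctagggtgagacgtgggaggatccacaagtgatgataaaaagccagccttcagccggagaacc
CXCL10: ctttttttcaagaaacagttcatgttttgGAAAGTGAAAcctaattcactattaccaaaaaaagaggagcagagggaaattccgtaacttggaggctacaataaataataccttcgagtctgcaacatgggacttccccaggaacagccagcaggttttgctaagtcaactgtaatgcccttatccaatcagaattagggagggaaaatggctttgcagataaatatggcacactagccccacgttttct
IFI6 held 3 matches, beginning 156, 115 and 93 bases before the start, the first and the second with the same letters. CXCL10 held 1 match, 221 bases before the start.

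Where Pol II was present, the other factors mostly were too. KAP1 and Cdk9 were found there less often than at coding starts in general, at the edge of the counting error. Of the 29 members with Pol II at the canonical start, 21 also had KAP1 (72.4%, interval 52.8 to 87.3, against 88.3% of coding starts with Pol II). Cdk9 was found at 22 of them (75.9%, interval 56.5 to 89.7, against 91.7%). Larp7 was found at 26 (89.7%, interval 72.6 to 97.8, against 95.2%) and Hexim1 at 27 (93.1%, interval 77.2 to 99.2, against 98.5%). For Larp7 and Hexim1 the interval held the share of coding starts. All of the other 4 factors were found at 20 (69.0%, against 85.9%). KAP1 beside Pol II was found at 11 of 14 regulators and at 10 of 15 effectors, a difference within the counting error of these shares.

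The combination of Pol II, Larp7 and Hexim1 without KAP1 and Cdk9 was found at 5 members, STAT2, IRF3, BST2, OASL and IFI27, or 5 of 49, against 1.92% of coding genes. No interval was taken for this share, and it depends in part on the window. Just outside it lay Cdk9 and KAP1 at BST2, 1.66 and 1.69 kb downstream, and Cdk9 at OASL, 1.37 kb downstream. At STAT2, IRF3 and IFI27 the nearest KAP1 and Cdk9 peaks lay 2.63 kb or further away. The Pol II peak of IFI27 began 0.911 kb downstream, near the edge of the window. Among these 5 the Larp7 fold was 2.81 at BST2, 2.87 at OASL, 3.63 at STAT2, 4.06 at IRF3 and 5.33 at IFI27. Cdk9 was found at 21 of 28 members with both Larp7 and Hexim1, against 92.2% of such coding starts. Of the 20 members without Pol II, 7 had any other factor, against 38.5% of such coding starts, and KAP1 was found at 1 of them, TRIM21, against 11.6%. Where a factor and Pol II were both present, the strongest peaks usually lay on each other. This was so of KAP1 at 18 of 21 members, against 97.7% of coding starts, and of Cdk9 at 22 of 22, against 97.6%. It was so of Larp7 at 23 of 26 members, against 98.3%, and of Hexim1 at 25 of 27, against 98.9%. At IRF2, IRF9 and IFITM3 the strongest KAP1 peak did not overlap the strongest Pol II peak. The same held for Larp7 at IRF2, BST2 and OASL and for Hexim1 at OASL and IFI35.

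Members with a peak did not have strong peaks as a group. The median Pol II fold was 33.3 over 14 regulators and 24 over 15 effectors, together 33.3 over 29 members, against 40.5 over all coding starts with Pol II. Of these 29 members 11 lay above that median. The median folds of KAP1 were 4.21 over members and 4.84 over coding starts with KAP1, and those of Larp7 were 4.06 over members and 4.82 over coding starts. Those of Hexim1 were 5.6 over members and 6.98 over coding starts, and those of Cdk9 were 4.2 over members and 4.59 over coding starts. The lowest Pol II folds reached 4.17 among regulators and 4.6 among effectors, so the range of each role covered most of the other.

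**Figure D4:**
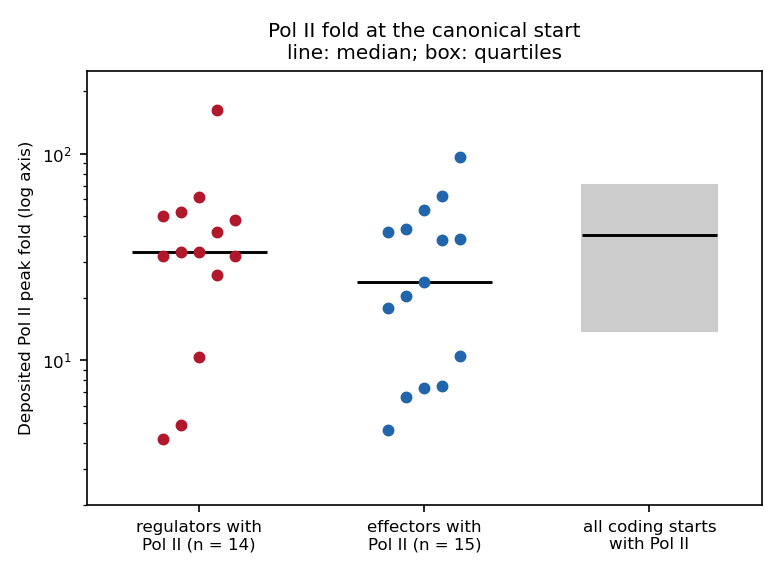
Deposited Pol II peak fold on a log axis at the canonical start of the 14 regulators and 15 effectors with Pol II, 1 point per gene with a line at the median, beside the median and quartiles of all coding starts with Pol II. The points of both roles overlap, with medians of 33.3 for regulators and 24 for effectors against 40.5 for all coding starts, and IRF1 stands highest at 162.3.

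The weaker peaks set how many calls held at a stricter threshold. With peaks at a −log10 q of at least 5, Pol II was still found at 27 members at the canonical start, against 71.7% of coding genes. KAP1 was then found at 4 members (TRIM25, IFIT5, EIF2AK2 and ADAR), against 26.3%, and Cdk9 at 4 (IRF1, TRIM25, HERC6 and EIF2AK2), against 15.8%. Larp7 was found at 12, against 50.0%, and Hexim1 at 22, against 71.0%. TRIM25 and EIF2AK2 were thus the members with KAP1 and Cdk9 both at that threshold.

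Base composition moved with occupancy. The ratio of observed to expected CpG in the 300 bases around the canonical start, 250 before it and 50 from it on, had a median of 0.81 over regulators and 0.33 over effectors, against 0.78 over all coding starts. It was 0.78 over the 20 members with all 5 factors and 0.23 over the 13 members with none, the highest of which was 0.42. Among all coding starts the medians were 0.86 with all 5 factors and 0.21 with none. In the IFIT family the ratio was 0.94 at IFIT5, which had all 5 factors, against 0.26 at IFIT1, which had 1, and 0.29 at IFIT2 and 0.42 at IFIT3, which had none.

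Within starts of like CpG content the members were close to other coding genes for Pol II. At a ratio of at least 0.5, Pol II was found at 21 of 22 members, against 93.9% of such coding starts, and all 5 factors at 18 (81.8%), against 82.1%. Below 0.5, Pol II was found at 8 of 27 members (29.6%), against 23.9%, and all 5 factors at 2 (7.41%), against 16.8%. KAP1 was found at 4 of those 27 members (14.8%), against 24.1%. The roles were spread unevenly over these classes, since 2 regulators and 25 effectors lay below 0.5. At a ratio of at least 0.5, Pol II was found at 13 of 13 regulators and at 8 of 9 effectors, and below 0.5 at 1 of 2 regulators and at 7 of 25 effectors. The part of base composition in the difference between the roles was not tested further.

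**Figure D5:**
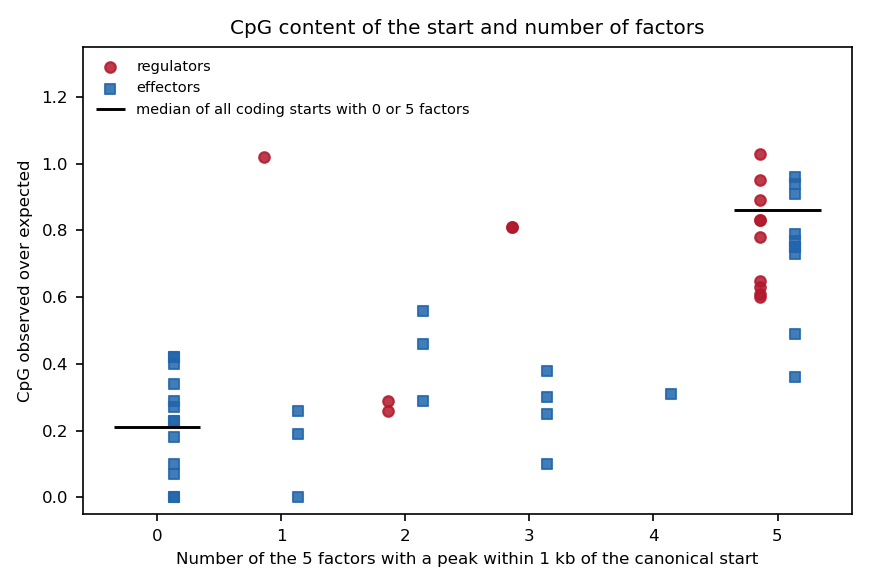
Observed over expected CpG ratio in the 300 bases around the canonical start (vertical axis) against the number of the 5 factors with a peak there (horizontal axis), with regulators as red circles, effectors as blue squares and lines at the medians of all coding starts with 0 and with 5 factors. All 13 members with no factor lie at or below 0.42, and the members with all 5 factors have a median of 0.78.

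The interferon response sequences were more frequent in the set than at coding starts in general, at occupied and at empty starts. The ISRE core as spelled out above, searched on both strands with overlapping matches counted, was found in the same 300 bases at 29 of 49 members (59.2%), against 3.29% of all coding starts. It was found at 7 of 15 regulators and 22 of 34 effectors. Of the members with all 5 factors 14 of 20 held it, of those with 1 to 4 factors 6 of 16, and of those with none 9 of 13. Among starts with the core, all 5 factors were found at 48.3% of members, against 40.5% of coding starts, and none at 31.0% of members, against 32.6%. Among starts without it, all 5 factors were found at 30.0% of members, against 64.5%, and none at 20.0% of members, against 15.3%. The GAS core TTCNNNGAA was found at 12 members (24.5%), against 6.50%, among them 6 regulators and 6 effectors. The GC box core GGGCGG was found at 13 regulators and 12 effectors, together 51.0% against 61.5%, and at 16 of the 20 full starts but 1 of the 13 empty ones. Full and empty coding starts in general were not counted for it, and their median GC contents were 68.7% and 45.3%. The TATA box core TATAAA, taken on either strand and at any position of the 300 bases, was found at 3 members (IFIT3, RSAD2 and IFI44), against 9.63%. All 3 had no factor, and coding starts with this core were not counted by factor.

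Inside the genes, Pol II, KAP1, Hexim1 and Cdk9 were each found at a smaller share of members than of coding genes, with the widest gaps for Pol II and KAP1. The gap for Larp7 lay within counting error. The body was first taken as the gene less its first 2 kb, where the gene spanned 4 kb or more, which left 46 members (14 regulators and 32 effectors) and left out IRF7, BST2 and CXCL10. Pol II was found there at 16 members (34.8%, interval 21.4 to 50.2), against 62.1% of such coding genes, and KAP1 at 16, against 56.6%. Larp7 was found at 37 (80.4%, interval 66.1 to 90.6), against 84.8%, which the interval held. Hexim1 was found at 35 (76.1%, interval 61.2 to 87.4), against 88.1%, and Cdk9 at 27 (58.7%, interval 43.2 to 73.0), against 76.2%. By role, Pol II was found at 6 regulators and 10 effectors, KAP1 at 4 regulators and 12 effectors, and Cdk9 at 10 regulators and 17 effectors.

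Several of those peaks are starts of the same genes, since the annotated body holds the canonical start of IRF1, ISG15, IFITM3, MX1, ADAR and ISG20. With the body taken from the canonical start, 42 members remained. Pol II was then found at 8 (19.0%, interval 8.60 to 34.1), against 56.5% of coding genes, and these were 4 of 14 regulators and 4 of 28 effectors. KAP1 was found at 9 (21.4%), against 50.3%. In the annotated bodies, peaks more than 1 kb from every transcript start of any gene likewise left Pol II at 6 of 46 members, against 49.8%, and KAP1 at 9, against 42.4%. In the canonical bodies Larp7 was found at 30 (71.4%, interval 55.4 to 84.3), against 82.5%, which the interval again held. Hexim1 was found there at 31 (73.8%), against 86.6%, and Cdk9 at 23 (54.8%), against 72.5%. The median canonical body was 18.1 kb in members and 27.2 kb in coding genes, and per 100 kb of it Pol II had 1.07 peaks in members and 4.48 in coding genes. KAP1 had 1.15 peaks per 100 kb in members and 2.54 in coding genes, and Cdk9 had 3.12 in members and 5.09 in coding genes. Larp7 had 7.48 in members and 8.02 in coding genes, and Hexim1 had 9.21 in members and 10.2 in coding genes. By covered length the gap for both 7SK proteins was wider, with Larp7 over 2.92% of the canonical body in members and 6.54% in coding genes and Hexim1 over 4.17% in members and 8.25% in coding genes. Pol II covered 0.446% in members and 1.71% in coding genes, and KAP1 0.486% in members and 1.86% in coding genes.

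Pol II at the start was seldom joined by Pol II inside the gene. Of 25 members with Pol II at the canonical start and a canonical body of sufficient length, 6 had Pol II in that body (24.0%), against 64.5% of coding genes. Of the 34 members without Pol II in the canonical body, 22 had Larp7 there (64.7%, against 64.4% of such coding genes), 23 had Hexim1 (67.6%, against 71.3%) and 15 had Cdk9 (44.1%, against 48.5%). KAP1 was found at 4 of these 34, against 17.7%. For the 7SK proteins and Cdk9 the members without Pol II inside were thus near the share of other such genes.

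The members with Pol II in the canonical body were few enough to name. IRF3 had 5 Pol II peaks there, the strongest with a fold of 33.3 over another of its transcript starts, and IFI35 had 2. USP18 had a site 5.5 kb into the gene with all 5 factors and a Pol II fold of 6.69, 5.26 kb from the nearest annotated start. PARP14 had a site 44.5 kb into the gene with all 5 factors and a Pol II fold of 11.7, 6.84 kb from the nearest annotated start. IRF9, MX2, IFI6 and IFI27 had 1 Pol II peak each, with folds between 2.91 and 6.35. MX1 had no Pol II in its canonical body but 4 KAP1 peaks, each with Larp7, and EIF2AK2 had 2 KAP1 peaks without Pol II.

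Receptor, kinase and inhibitor genes of the interferon pathway stood mostly among the full starts, and the interferon genes among the empty ones. Most coding genes are full too, with all 5 factors at 63.8% of canonical starts and none at 15.8%. The whole pathway list was close to these shares, with all 5 factors at 19 of 28 genes and none at 5. All 6 receptor genes had all 5 factors at the canonical start, with Pol II folds between 26.9 at IFNAR1 and 76.5 at IFNGR2, and so did the inhibitors SOCS1, SOCS3 and PIAS1. JAK1 and JAK2 had all 5, and TYK2 lacked KAP1 and Larp7. Among sensing adaptors and kinases MAVS, CGAS and TBK1 had all 5, and STING1 and IKBKE had Larp7 and Hexim1 alone. None of the 6 interferon genes (IFNA1, IFNB1, IFNG, IFNL1, IFNE and IFNK) had Pol II, KAP1, Larp7 or Cdk9, and IFNA1 had a Hexim1 peak with a fold of 3.4.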

How the data were processed

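Per the submitters' processing notes, Bowtie 1.1, MACS2 and the build hg19 were used, MACS2 without a version. How duplicates were handled, which control was used, the depth and the MACS2 settings: none is given in the sources used here. Per the labels' protocols, chromatin was crosslinked with 1% formaldehyde for 10 min and sonicated for 50 min. Each list belongs to 1 library, with the Pol II list in the narrow layout and the others in the broad layout. The deposited fold of a peak is the authors' ratio over its background. The deposited −log10 values of p and q were used for the stricter lists, and the deposited score was not used. In the Pol II list the last column gave the summit.

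Genes, transcripts and canonical starts came from GENCODE release 44 on GRCh37, and no peak lay past the end of a chromosome of that reference. Of the peaks, 2 of Cdk9 lay outside chromosomes 1 to 22, X and Y and were dropped. Overlap meant at least 1 bp. Where several peaks met a window, the fold is that of the strongest. Shares carry exact (Clopper-Pearson) 95% intervals, and every share was read against all coding genes. With 1 library per antibody no p-value is given. Counting was checked on simulated peaks. Python 3.11.15 with pandas 2.3.3 and scipy 1.17.1 was used. All 49 members could be named, together with genes sharing their windows and a pathway list, of which some genes are not reported here. The members, their roles and the pathway and marker lists were chosen with earlier results of these data known. The alternatives were a −log10 q minimum of 5, lists of equal length (20000 peaks, ranked by −log10 p), merged and resized peaks, other windows, starts and bodies, members with shared windows left out, and a narrower class of regulators.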

Additional observations from a re-analysis of the deposited data

How the results depend on the processing

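Of 139 recomputed counts, 101 stayed within 1.5 times the reported count and 38 did not, and for these the cause was not tested beyond what each setting removes. Counts and not shares were compared, so a setting with fewer genes can move a count by itself. Pol II at 13 of 15 regulators (86.7%) became 8 of 9 (88.9%) in the narrower class. Larp7 in 37 of 46 bodies (80.4%) became 24 of 33 (72.7%) in genes of 4 to 50 kb. Numbers in brackets are shares of all coding genes at the same setting, given for most counts. With the −log10 q at 5 or above, KAP1 was found at 4 members at the annotated 5′ end (24.4%), Larp7 at 13 (47.2%), Cdk9 at 4 (14.9%), all 5 factors at 2, 1 regulator and 1 effector (9.16%), and none at 23 (26.5%). In the gene body that threshold left KAP1 at 2 members, Larp7 at 13 (44.8%), Hexim1 at 19 (53.4%) and Cdk9 at 1 (10.2%). With every list reduced to its 20000 peaks of highest −log10 p, KAP1 was found at 8 members (41.4%), Larp7 at 6 (30.6%), Hexim1 at 17 (52.9%), Cdk9 at 10 (40.4%), all 5 factors at 2, 1 regulator and 1 effector (16.1%), and none at 27 (32.7%). In the body this left Pol II at 5 (27.0%), KAP1 at 4 (30.4%), Larp7 at 9 (33.3%), Hexim1 at 11 (34.4%) and Cdk9 at 6 (31.3%). Counting any annotated transcript start gave all 5 factors at 28 members, of which 17 were effectors (68.0%), and none at 8 (13.0%). The canonical start, chosen after seeing the data, gave Pol II in 8 bodies (56.5%) and KAP1 in 9 (50.3%), and peaks over 1 kb from every transcript start gave 6 for Pol II (49.8%) and 9 for KAP1 (42.4%). In the 33 members of 4 to 50 kb, KAP1 was found in 10 bodies, Larp7 in 24 (78.2%), Hexim1 in 23 (82.7%) and Cdk9 in 17 (67.0%). With only the 9 transcription factors and RNA sensors as regulators, Pol II was found at 8 of them (70.5%) and all 5 factors at 4 (59.7%). In that division 14 of 40 effectors had all 5 (59.7%). Merged or resized peaks, windows of 500 bp or 2 kb, a body from 5 kb and leaving out members with shared windows moved no count past 1.5 times. Pol II was found at a larger share of regulators than of effectors under every alternative run, while for KAP1 at the canonical start the order turned with the −log10 q at 5 or above (6.67% of regulators and 8.82% of effectors) and with 20000 peaks (13.3% and 14.7%). No paired analysis was possible because each antibody had 1 library and no test was run. Depth is unknown, so an empty start means no peak in these lists, not absence of the factor.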
